A study of Saccharomyces cerevisiae with 12 samples.

Results

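The genes described here encode the ring scaffolds, the central channel, the cytoplasmic face and the membrane anchor of the yeast nuclear pore complex, together with proteins needed to build pores in the nuclear envelope. The list has 34 genes, named by symbol, and the genes of the nuclear basket were left out of it. Each of the 34 matched 1 probe set among the 5449 Saccharomyces cerevisiae genes tested. NUP59 was found through a synonym, since its current symbol is ASM4.

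The pore is built from a few subcomplexes that are repeated around the channel. The Y complex forms the outer rings, and the inner ring holds them to the membrane and, through Nic96, carries the channel proteins whose phenylalanine-glycine (FG) repeats bind transport receptors. On the cytoplasmic side, Nup82 and Nup159 position the helicase Dbp5, which with Gle1 strips export factors from messenger RNA as it leaves the pore. Pom152, Pom34 and Ndc1 cross the membrane at the pore, and Brr6, Brl1 and Apq12 are membrane proteins that new pores need in order to be inserted.

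Transcripts were measured with Affymetrix arrays on 4 strains, each with 3 arrays described as biological replicates. The strains were a nup60 deletion (nup60Δ::KANR), which lacks a nuclear basket protein, an ada2 deletion (ada2Δ::KANR), which lacks an adaptor of the SAGA and ADA histone acetyltransferase complexes, a strain labelled as carrying both deletions, and wild type. All 4 are given as MATa with the markers his3, leu2, met15 and ura3, and each group is 1 haploid strain, with no second isolate named. Cultures of 50 mL rich medium (YEPD) at 30 °C were taken at mid-log phase. Values below are log2 of the deposited intensities, differences are the deletion minus its reference on that scale, and a call is an adjusted p below 0.05 in limma, adjusted over all 5449 genes. A value describes transcript relative to the whole RNA of a culture, so fewer cells with a transcript and less transcript per cell cannot be told apart. Nothing here measures pore proteins or the number of pores.

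The deleted genes matched the labels. NUP60 averaged 6.37 in nup60 deletion cells, 6.20 on the arrays labelled as the double deletion, 12.23 in ada2 deletion cells and 12.53 in wild type. ADA2 averaged 4.23 in ada2 deletion cells, 4.39 on the arrays labelled as the double deletion, 10.72 in nup60 deletion cells and 10.94 in wild type. The mating-type transcripts of the arrays labelled as the double deletion went against the label MATa. All 8 transcripts of a cells were lower there than in wild type (median difference -2.69), all 5 measured transcripts of alpha cells were higher (median difference 6.80), and URA3 averaged 12.77 against 4.59 in wild type. In the ada2 deletion 7 of the 8 a-cell transcripts were lower as well (median difference -0.92), and 1 of the 5 alpha-cell transcripts was higher. That strain therefore differs from the other 3 in more than the deletions, and in every comparison that uses its arrays these differences and the deletions cannot be told apart. Across arrays, 105 to 148 genes lay below the background (5.62, the 95th percentile of the Schizosaccharomyces pombe probe sets), and no member did on any array. Array 3 of the labelled double deletion and array 1 of wild type had higher poly-A spike signals (9.20 and 9.02) than the other 10 arrays (6.71 to 8.02). Arrays 1 and 2 of the labelled double deletion also lay above every nup60 and ada2 deletion array and above wild type arrays 2 and 3. Leaving out its array 3 therefore does not remove the spike difference of that group. The part of this difference in the gene values was not tested. Counts of members without wild type array 1 and labelled double deletion array 3 are given for each comparison.

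Members were more often lower than higher in the nup60 deletion and in the labelled double deletion, with changes that were mostly small. In the ada2 deletion the counts moved with the arrays used. In nup60 deletion cells 17 members were lower and 1 was higher, where 26.2% of all genes were lower and 25.1% higher. In ada2 deletion cells 8 members were lower and 3 were higher, against 23% of all genes lower and 22.7% higher. On the arrays labelled as the double deletion 19 were lower and 5 higher than wild type, against 37.1% and 36.1% of all genes. The median member differed from wild type by -0.15, -0.053 and -0.16 in these 3 comparisons, and the median gene by -0.024, -0.013 and -0.0056. The 8 of 34 lower in the ada2 comparison are a share near the background, while 17 of 34 in the nup60 comparison and 19 of 34 on the labelled double deletion arrays are larger shares than the background. The 1 higher member of the nup60 comparison was POM33, which lost its call when any of several single arrays was left out. The 8 lower members of the ada2 comparison became 4 without ada2 array 1 (17.4% of all genes) and 5 without ada2 array 2 (20.5%). The 5 higher members of the labelled double deletion became 3 without labelled double array 1 or 2 or wild type array 2 (34.4% to 34.7% of all genes). They became 2 without wild type array 3 (33.8%).

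Leaving out wild type array 1 and labelled double deletion array 3 raised the number of calls over all genes and added members. In the nup60 deletion 19 members were then lower and 1 higher (33.6% and 30.3% of all genes), with BRL1 at -0.16 (adjusted p = 0.0104) and APQ12 at -0.10 (adjusted p = 0.0281) as the added ones. In the ada2 deletion 10 were lower and 8 higher (30.1% and 31% of all genes). The added lower ones were BRL1 at -0.23 (adjusted p = 0.00125) and SEH1 at -0.16 (adjusted p = 0.00859), and the added higher ones were NUP84, NUP157, NSP1, NUP159 and NUP42, with differences of 0.10 to 0.17. Against wild type, 18 members were lower and 5 higher on the remaining 2 labelled double deletion arrays (39.2% and 40.7% of all genes). NUP49 and DYN2 lost their calls there, at -0.069 (adjusted p = 0.0561) and 0.16 (adjusted p = 0.0777), and NSP1 was higher by 0.15 (adjusted p = 0.0115).

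Group means spread less for these genes than for the genome. The difference between a member's highest and lowest group mean had a median of 0.33, against 0.43 for all genes. It reached 0.5 in 8 members, where 41.9% of all genes did so, and it reached 1 in PER33 alone, where 12.5% of all genes did so. The lowest mean was that of the nup60 deletion in 12 members (18.9% of all genes), of the ada2 deletion in 4 (20.5%), of the labelled double deletion in 16 (35.0%) and of wild type in 2 (25.6%). Wild type had the highest mean in 17, as it did in 30.0% of all genes. Replicates lay closest together in the nup60 and ada2 deletions, with median member SDs of 0.031 and 0.034, and farther apart in the labelled double deletion (0.092) and wild type (0.11).

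**Figure D1:**
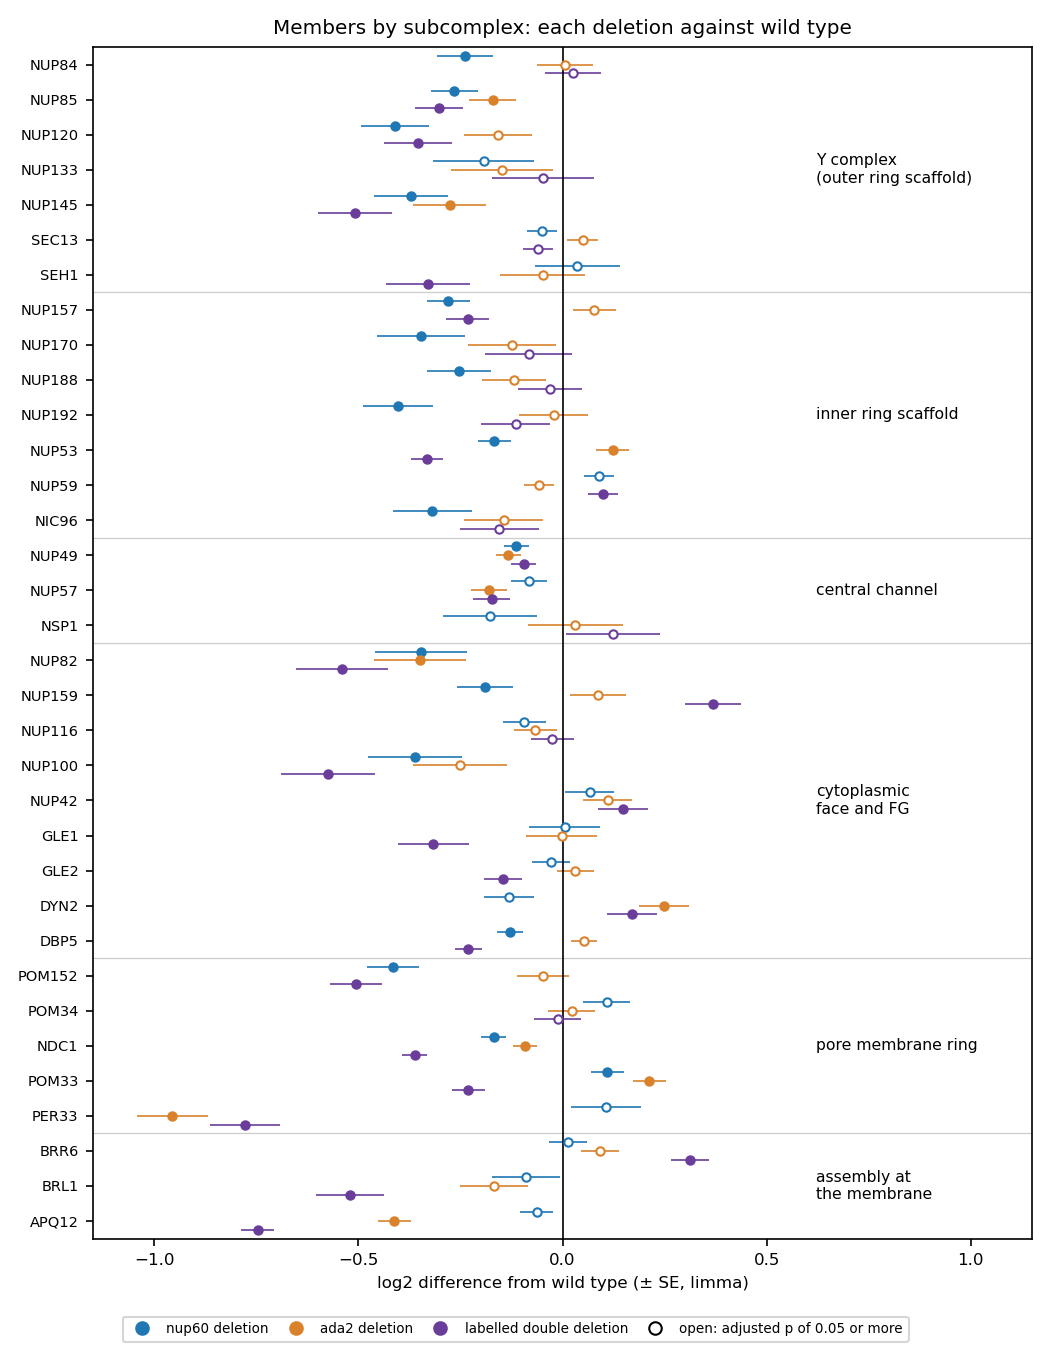
Log2 difference from wild type (± SE, limma) of each of the 34 genes in the nup60 deletion, the ada2 deletion and the labelled double deletion, ordered by subcomplex. Filled points passed an adjusted p of 0.05, and PER33 and APQ12 lie farthest to the left, with PER33 at -0.96 in the ada2 deletion and -0.78 in the labelled double deletion, and APQ12 at -0.75 in the labelled double deletion.

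Of the 34 genes, 5 were lower in all 3 comparisons with wild type. They were NUP85 and NUP145 of the Y complex, NUP49 of the channel, NUP82 of the cytoplasmic face and NDC1 of the membrane. The labelled double deletion call of NUP49 did not hold without the 2 arrays, as given above. The ada2 calls of NUP85, NUP145, NUP82 and NDC1 were each lost under some of the other settings tried. None of the 5 genes therefore kept all 3 calls throughout. Another 5 passed as lower in the nup60 deletion and in the labelled double deletion and did not pass in the ada2 deletion (NUP120, NUP157, NUP100, DBP5 and POM152), and 5 more passed as lower in the nup60 deletion and in neither of the others (NUP84, NUP170, NUP188, NUP192 and NIC96). NUP133, SEC13, NSP1, NUP116 and POM34 were called in none of the 3. POM33 was higher in both single deletions and lower in the labelled double deletion, and NUP53 was lower, higher and lower in the nup60, ada2 and labelled double deletions. The 3 comparisons share the wild type arrays, so calls in several of them are not independent. The share of all genes with each of these patterns is not given here, so the pattern counts have no background to stand against.

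The Y complex had 4 of 7 transcripts lower in nup60 deletion cells, 2 of 7 in ada2 deletion cells and 4 of 7 on the arrays labelled as the double deletion, and none higher. Over all genes 26.2%, 23% and 37.1% were lower in these comparisons, and 25.1%, 22.7% and 36.1% higher. The 2 of 7 in the ada2 deletion is a share near that of all genes. NUP120 and NUP145 changed most. NUP120, a scaffold protein at the end of a short arm of the Y, had log2 values of 10.74, 10.72 and 10.81 in nup60 deletion cells, 10.97, 11.04 and 11.02 in ada2 deletion cells, 10.74, 10.79 and 10.91 on the arrays labelled as the double deletion, and 11.40, 11.04 and 11.07 in wild type. The nup60 deletion and labelled double deletion arrays all lay below the wild type arrays, and the ada2 arrays lay just below them too. The difference from wild type was -0.41 ± 0.083 (SE, adjusted p = 0.00206) in the nup60 deletion, -0.16 in the ada2 deletion, which did not pass (adjusted p = 0.146), and -0.36 (adjusted p = 0.00261) in the labelled double deletion. NUP145 encodes a precursor that cuts itself into an FG protein and a Y complex scaffold protein. Its values were 12.002, 12.04 and 11.94 (nup60 deletion), 12.07, 12.07 and 12.13 (ada2 deletion), 11.75, 11.84 and 11.99 (labelled double deletion) and 12.60, 12.23 and 12.28 (wild type). Every deletion array lay below every wild type array, and the labelled double deletion arrays reached lowest. It was lower than wild type with a difference of -0.37 in the nup60 deletion (adjusted p = 0.00569), -0.28 in the ada2 deletion (adjusted p = 0.0277) and -0.51 in the labelled double deletion (adjusted p = 0.000366).

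NUP85, which binds Seh1 in an arm of the Y, was lower with a difference of -0.27, -0.17 and -0.30 in the nup60, ada2 and labelled double deletions. NUP84, in the stem, was lower in the nup60 deletion with a difference of -0.24 (adjusted p = 0.0142), and without wild type array 1 this was -0.15 (adjusted p = 0.0205). It was higher on the labelled double deletion arrays than in the nup60 deletion by 0.26 (adjusted p = 0.00623). SEH1, which the Y complex shares with a vacuolar coat complex, averaged 11.44 ± 0.20 on the labelled double deletion arrays and 11.77 ± 0.19 in wild type (SD, n = 3 each), a difference of -0.33 (adjusted p = 0.0143), although the 2 groups overlapped. SEC13, shared with the COPII vesicle coat, had values of 13.64, 13.58 and 13.59 (nup60 deletion), 13.69, 13.68 and 13.73 (ada2 deletion), 13.59, 13.54 and 13.64 (labelled double deletion) and 13.69, 13.62 and 13.64 (wild type). Its ada2 deletion arrays lay above all nup60 and labelled double deletion arrays, and wild type overlapped every group. It was called in 1 comparison, lower on the labelled double deletion arrays than in the ada2 deletion, with a difference of -0.11 (adjusted p = 0.0228). NUP133, in the stem that contacts the membrane, passed in no comparison. Its values were 11.88, 11.86 and 11.80 (nup60 deletion), 11.88, 11.88 and 11.91 (ada2 deletion), 11.82, 11.93 and 12.22 (labelled double deletion) and 12.35, 11.89 and 11.87 (wild type), with wild type array 1 and labelled double deletion array 3 above all other arrays. Several of these calls were lost when 1 array was left out. All of those passed with wild type array 1 and labelled double deletion array 3 both left out (adjusted p 9.40e-05 to 0.0187). NUP85 in the ada2 comparison lost its call without ada2 array 1 or 2 or wild type array 1 or 2 (differences -0.18 to -0.12, adjusted p 0.0572 to 0.0980). NUP145 in the ada2 comparison lost it without ada2 array 1 or 2 or wild type array 1 (differences -0.27 to -0.16, adjusted p 0.0588 to 0.0752). NUP145 in the labelled double against ada2 comparison, at -0.23 (adjusted p = 0.0387), lost it without nup60 array 1, any ada2 array or labelled double array 1 or 2 (differences -0.24 to -0.18, adjusted p 0.0521 to 0.137). SEC13 there lost it without ada2 array 3 or labelled double array 2 (differences -0.10 to -0.083, adjusted p 0.0807 to 0.0876). SEH1 against wild type lost it without labelled double array 3 or wild type array 2 (differences -0.25 to -0.21, adjusted p 0.0501 to 0.0607), and against the ada2 deletion, at -0.28 (adjusted p = 0.0319), without any ada2 array or labelled double array 3 (differences -0.30 to -0.17, adjusted p 0.0578 to 0.120).

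Of the 6 subcomplexes, the inner ring had the highest share of lower transcripts in nup60 deletion cells, 6 of 7, with NUP59 the exception. Over all genes 26.2% were lower there. NUP157, NUP170, NUP188, NUP192 and NIC96 are at least 2000 bp long, and 40.2% of all genes of that length were lower. With the gene length trend of each array removed, the nup60 calls of NUP157 and NUP188 ended (adjusted p = 0.137 and 0.634). In ada2 deletion cells none of the 7 was lower and NUP53 was higher, and on the labelled double deletion arrays NUP157 and NUP53 were lower and NUP59 higher than wild type. The shares of all genes lower and higher were 23% and 22.7% in the ada2 deletion, and 37.1% and 36.1% in the labelled double deletion. NUP192, the largest scaffold protein of the ring, had values of 11.30, 11.37 and 11.29 in nup60 deletion cells, 11.70, 11.68 and 11.71 in ada2 deletion cells, 11.50, 11.56 and 11.75 on the arrays labelled as the double deletion, and 11.93, 11.60 and 11.64 in wild type. The nup60 deletion arrays all lay below the other 9, and the other 3 groups overlapped. Its difference from wild type was -0.40 ± 0.085 (SE, adjusted p = 0.00260) in the nup60 deletion, and -0.022 in the ada2 deletion and -0.11 in the labelled double deletion, neither of which passed (adjusted p = 0.852 and 0.243). NUP188, a second large ring protein, had values of 12.12, 12.12 and 12.15 (nup60 deletion), 12.19, 12.31 and 12.30 (ada2 deletion), 12.23, 12.38 and 12.45 (labelled double deletion) and 12.57, 12.31 and 12.27 (wild type). The nup60 deletion arrays lay below all others here too, and the difference from wild type was -0.25 (adjusted p = 0.0199). NIC96, which holds the channel trimer, averaged 11.81 ± 0.018 in nup60 deletion cells and 12.13 ± 0.24 in wild type (SD, n = 3 each), a difference of -0.32 (adjusted p = 0.0181).

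The inner ring holds 2 paralog pairs, and in each the labelled double deletion gave different calls for the 2 genes. NUP157 and NUP170 encode related scaffold proteins. NUP157 had values of 11.61, 11.58 and 11.58 (nup60 deletion), 11.94, 11.95 and 11.96 (ada2 deletion), 11.61, 11.56 and 11.74 (labelled double deletion) and 11.96, 11.84 and 11.80 (wild type), and its nup60 and labelled double deletion arrays lay below all ada2 and wild type arrays. NUP170 had values of 11.76, 11.78 and 11.72 (nup60 deletion), 11.97, 11.98 and 11.97 (ada2 deletion), 11.90, 11.99 and 12.15 (labelled double deletion) and 12.40, 11.94 and 11.95 (wild type), and only its nup60 deletion arrays lay below the rest. Both were lower in the nup60 deletion, NUP157 with a difference of -0.28 (adjusted p = 0.00126) and NUP170 at -0.35 (adjusted p = 0.0196). On the labelled double deletion arrays NUP157 was lower than wild type with a difference of -0.23 (adjusted p = 0.00208), and the difference of NUP170, -0.083, did not pass (adjusted p = 0.497). NUP53 and NUP59 encode related proteins that bind the membrane and the ring. NUP53 had values of 11.06, 11.01 and 11.11 (nup60 deletion), 11.38, 11.30 and 11.37 (ada2 deletion), 10.85, 10.90 and 10.94 (labelled double deletion) and 11.23, 11.19 and 11.26 (wild type), so that the 4 groups did not overlap and stood in the order labelled double deletion, nup60 deletion, wild type, ada2 deletion from low to high. Its differences from wild type were -0.17 (adjusted p = 0.00560) in the nup60 deletion, 0.12 (adjusted p = 0.0287) in the ada2 deletion and -0.33 (adjusted p = 2.00e-05) in the labelled double deletion. NUP59 had values of 11.37, 11.37 and 11.30 (nup60 deletion), 11.15, 11.22 and 11.22 (ada2 deletion), 11.32, 11.40 and 11.34 (labelled double deletion) and 11.27, 11.24 and 11.26 (wild type), with all nup60 and labelled double deletion arrays above all others. It was higher on the labelled double deletion arrays than in wild type by 0.10 (adjusted p = 0.0325) and than in the ada2 deletion by 0.16 (adjusted p = 0.00296), and its difference of 0.089 in the nup60 deletion did not pass (adjusted p = 0.0637). Whether the changes of a pair differ from each other was not tested, since each probe set has a scale of its own. Single arrays moved several values in the ring. Without wild type array 1 the nup60 differences were -0.18 for NIC96 (adjusted p = 0.0150), -0.20 for NUP170 (adjusted p = 0.0219) and -0.16 for NUP188 (adjusted p = 0.0485). NIC96 lost its nup60 call without nup60 array 2 (difference -0.31, adjusted p = 0.0513), NUP170 without nup60 array 3 (difference -0.33, adjusted p = 0.0583), and NUP188 without nup60 array 1 or 2 (difference -0.25, adjusted p 0.0528 to 0.0563). NUP53 lost its ada2 call without ada2 array 1 or 3 or wild type array 2 (differences 0.10 to 0.11, adjusted p 0.0925 to 0.0930). NUP59 on the labelled double deletion arrays lost its call without labelled double array 2 or wild type array 2 or 3 (differences 0.074 to 0.10, adjusted p 0.0673 to 0.118).

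The central channel is made of 3 FG proteins. NUP49 was lower in all 3 comparisons with wild type with a difference of -0.11 (adjusted p = 0.0108) in the nup60 deletion, -0.13 (adjusted p = 0.00533) in the ada2 deletion and -0.10 (adjusted p = 0.0167) in the labelled double deletion. Its replicates lay close together, with SDs of 0.018 to 0.029 in the 4 groups, and every wild type array lay above every deletion array. Its labelled double deletion call was lost without wild type array 1 and labelled double array 3, at -0.069 (adjusted p = 0.0561), and when only those 2 groups were fitted (adjusted p = 0.0888). NUP57 averaged 11.56 ± 0.022 in ada2 deletion cells, 11.57 ± 0.066 on the labelled double deletion arrays and 11.74 ± 0.075 in wild type (SD, n = 3 each). It was lower in the ada2 deletion with a difference of -0.18 (adjusted p = 0.00727) and in the labelled double deletion at -0.17 (adjusted p = 0.00458), and its nup60 difference of -0.082 did not pass (adjusted p = 0.146). NSP1, which also serves in the cytoplasmic Nup82 complex, was called with all 12 arrays only between the labelled double deletion and the nup60 deletion. With wild type array 1 and labelled double array 3 both left out, that difference was 0.19 (adjusted p = 0.00207). NSP1 was then also higher than wild type in the ada2 deletion, by 0.17 (adjusted p = 0.00505), and in the labelled double deletion, by 0.15 (adjusted p = 0.0115). With all arrays it averaged 12.56 ± 0.21 on the labelled double deletion arrays and 12.26 ± 0.013 in nup60 deletion cells, a difference of 0.30 (adjusted p = 0.0411). That call was lost without any nup60 array, any ada2 array or labelled double array 2 or 3 (differences 0.19 to 0.33, adjusted p 0.0542 to 0.159). NSP1 and NUP192 are chromosomal neighbours, and no other members lie next to each other.

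The cytoplasmic face had 4 of 9 transcripts lower in nup60 deletion cells, 1 lower and 1 higher in ada2 deletion cells, and 5 lower and 3 higher on the labelled double deletion arrays. Over all genes 26.2%, 23% and 37.1% were lower in these comparisons, and 25.1%, 22.7% and 36.1% higher. The 3 of 9 higher in the labelled double deletion is a share near that of all genes. NUP159 and NUP82, whose proteins sit in the same complex, moved in opposite directions on the labelled double deletion arrays. NUP159, the FG protein that docks Dbp5, had log2 values of 12.07, 12.05 and 11.98 in nup60 deletion cells, 12.31, 12.32 and 12.30 in ada2 deletion cells, 12.49, 12.59 and 12.69 on the arrays labelled as the double deletion, and 12.38, 12.17 and 12.11 in wild type. All 3 labelled double deletion arrays lay above the other 9, and all nup60 deletion arrays lay below them. It was higher on the labelled double deletion arrays than in wild type by 0.37 ± 0.068 (SE, adjusted p = 0.000500), than in the nup60 deletion by 0.56 (adjusted p = 3.82e-05) and than in the ada2 deletion by 0.28 (adjusted p = 0.00342). Its nup60 difference from wild type was -0.19 (adjusted p = 0.0374). NUP82, which anchors Nup159 to the scaffold, had values of 10.99, 11.003 and 10.89 (nup60 deletion), 10.93, 11.02 and 10.93 (ada2 deletion), 10.60, 10.67 and 11.03 (labelled double deletion) and 11.52, 11.21 and 11.19 (wild type). All deletion arrays lay below all wild type arrays, and labelled double deletion array 3 lay above the other 2 of its group. It was lower than wild type with a difference of -0.35 (adjusted p = 0.0249) in the nup60 deletion, -0.35 (adjusted p = 0.0270) in the ada2 deletion and -0.54 ± 0.11 (SE, adjusted p = 0.00122) in the labelled double deletion.

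NUP100 and NUP116 encode related FG proteins that bind transport receptors. NUP100 had values of 10.95, 10.93 and 10.91 (nup60 deletion), 11.03, 11.02 and 11.07 (ada2 deletion), 10.54, 10.69 and 10.91 (labelled double deletion) and 11.58, 11.17 and 11.12 (wild type), with every deletion array below every wild type array. It was lower with a difference of -0.36 (adjusted p = 0.0230) in the nup60 deletion and -0.57 ± 0.12 (SE, adjusted p = 0.000932) in the labelled double deletion, and its ada2 difference of -0.25 did not pass (adjusted p = 0.0996). NUP116, which binds Gle2 and the importin Kap95, had values of 11.98, 11.95 and 11.92 (nup60 deletion), 11.98, 11.94 and 12.02 (ada2 deletion), 11.98, 11.98 and 12.09 (labelled double deletion) and 12.15, 12.05 and 11.94 (wild type). Each deletion group overlapped wild type, and no comparison called it.

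Of the other genes of the cytoplasmic face, DBP5, GLE1 and GLE2 were lower on the labelled double deletion arrays than in wild type, while DYN2 and NUP42 were higher. DBP5, the helicase, had values of 13.26, 13.29 and 13.30 (nup60 deletion), 13.43, 13.51 and 13.46 (ada2 deletion), 13.18, 13.20 and 13.17 (labelled double deletion) and 13.45, 13.40 and 13.39 (wild type). Its groups stood apart except for ada2 deletion and wild type, with the labelled double deletion lowest and the nup60 deletion next. It was lower than wild type with a difference of -0.13 (adjusted p = 0.00706) in the nup60 deletion and at -0.23 (adjusted p = 6.64e-05) in the labelled double deletion. GLE1, which activates Dbp5, was lower on the labelled double deletion arrays than in wild type with a difference of -0.32 (adjusted p = 0.00667), and its differences in the single deletions were 0.0049 and -0.0017 (nup60 and ada2). GLE2, which binds Nup116 and takes part in messenger RNA export, was lower there with a difference of -0.15 (adjusted p = 0.0140). DYN2, the dynein light chain that pairs Nup159 molecules, averaged 11.97 ± 0.085 in ada2 deletion cells and 11.72 ± 0.042 in wild type (SD, n = 3 each), and was higher by 0.25 (adjusted p = 0.00713) in the ada2 deletion and 0.17 (adjusted p = 0.0267) in the labelled double deletion. NUP42, which binds Gle1, had values of 10.10, 10.08 and 10.10 (nup60 deletion), 10.15, 10.06 and 10.20 (ada2 deletion), 10.20, 10.24 and 10.08 (labelled double deletion) and 10.11, 10.06 and 9.91 (wild type). Its labelled double deletion and wild type arrays overlapped, and the difference of 0.15 (adjusted p = 0.0451) lay just inside the threshold. With quantile normalization that difference was 0.0063 (adjusted p = 0.926). The call was also lost with arrays centred, with an intensity trend, with only the groups compared and with a block for the replicate number.

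Several calls at the cytoplasmic face were lost when 1 array was left out. With wild type array 1 and labelled double deletion array 3 both left out, these calls passed, with 2 exceptions. The exceptions were DYN2 against wild type (adjusted p = 0.0777) and GLE2 against the nup60 deletion (adjusted p = 0.118). In the nup60 comparison, NUP82 lost its call without nup60 array 1 or 3 or wild type array 1 (differences -0.36 to -0.24, adjusted p 0.0516 to 0.0813), and NUP100 without any nup60 array or wild type array 1 (differences -0.37 to -0.22, adjusted p 0.0521 to 0.0622). NUP159 in that comparison lost it without any nup60 array, any ada2 array, labelled double array 2 or wild type array 1 (differences -0.21 to -0.11, adjusted p 0.0505 to 0.121). NUP82 in the ada2 comparison lost it without ada2 array 1 or 3 or wild type array 1 (differences -0.34 to -0.24, adjusted p 0.0741 to 0.0821). On the labelled double deletion arrays against wild type, DYN2 lost its call without labelled double array 1 or 3 or wild type array 3 (differences 0.14 to 0.16, adjusted p 0.0714 to 0.0861), GLE2 without labelled double array 1 (difference -0.13, adjusted p = 0.0508), and NUP42 without any nup60 array, ada2 array 1, labelled double array 1 or 2 or wild type array 2 or 3 (differences 0.088 to 0.17, adjusted p 0.0539 to 0.187). Against the nup60 deletion, the call of DBP5, at -0.10 (adjusted p = 0.0182), was lost without nup60 array 2 or 3 (differences -0.10 to -0.094, adjusted p 0.0553 to 0.0630), and that of GLE2, at -0.12 (adjusted p = 0.0438), was lost without any nup60 array, any ada2 array, labelled double array 1 or 3 or wild type array 2 or 3 (differences -0.13 to -0.078, adjusted p 0.0556 to 0.147). NUP100 against the ada2 deletion, at -0.32 (adjusted p = 0.0274), lost its call without any ada2 array or labelled double array 1 or 2 (differences -0.33 to -0.24, adjusted p 0.0560 to 0.108). GLE1, DBP5 and NUP159 kept their calls against wild type on the labelled double deletion arrays under every alternative tried.

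The membrane proteins of the pore held the largest single change. PER33, a transmembrane protein related to Pom33, had values of 11.49, 11.51 and 11.51 in nup60 deletion cells, 10.52, 10.40 and 10.40 in ada2 deletion cells, 10.72, 10.70 and 10.45 on the arrays labelled as the double deletion, and 11.22, 11.47 and 11.52 in wild type. All ada2 deletion and labelled double deletion arrays lay below all nup60 deletion and wild type arrays. Its level in ada2 deletion cells was 1.94-fold lower than in wild type, a difference of -0.96 ± 0.086 (SE, adjusted p = 8.14e-06), and the labelled double deletion differed from wild type by -0.78 ± 0.086 (SE, adjusted p = 1.01e-05) and from the nup60 deletion by -0.88 (adjusted p = 7.40e-06). In the nup60 deletion the difference was 0.11 and did not pass (adjusted p = 0.326). POM33, its paralog, which takes part in placing pores in the nuclear envelope, had values of 12.47, 12.43 and 12.51 in nup60 deletion cells, 12.57, 12.56 and 12.58 in ada2 deletion cells, 12.17, 12.15 and 12.06 on the arrays labelled as the double deletion, and 12.31, 12.39 and 12.38 in wild type. The ada2 deletion arrays lay above and the labelled double deletion arrays below all others. POM33 was higher than wild type by 0.11 (adjusted p = 0.0418) in the nup60 deletion and 0.21 (adjusted p = 0.00149) in the ada2 deletion, and lower with a difference of -0.23 (adjusted p = 0.000338) in the labelled double deletion. The labelled double deletion was also lower than the nup60 deletion with a difference of -0.34 (adjusted p = 3.13e-05) and than the ada2 deletion at -0.44 ± 0.040 (SE, adjusted p = 2.62e-06). The nup60 call of POM33 was lost without nup60 array 1 or 3, any ada2 array, labelled double array 2 or any wild type array (differences 0.084 to 0.12, adjusted p 0.0502 to 0.149).

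POM152, the large protein of the lumenal ring, had values of 11.44, 11.45 and 11.36 in nup60 deletion cells, 11.79, 11.79 and 11.78 in ada2 deletion cells, 11.26, 11.31 and 11.41 on the arrays labelled as the double deletion, and 11.99, 11.80 and 11.72 in wild type. Its nup60 and labelled double deletion arrays lay below all ada2 deletion and wild type arrays. It was lower than wild type with a difference of -0.42 ± 0.063 (SE, adjusted p = 0.000325) in the nup60 deletion and -0.51 (adjusted p = 2.60e-05) in the labelled double deletion, and the labelled double deletion was lower than the ada2 deletion at -0.46 ± 0.063 (SE, adjusted p = 7.07e-05). In the ada2 deletion the difference from wild type was -0.048 and did not pass (adjusted p = 0.567). NDC1, which also inserts the spindle pole body into the envelope, was lower in all 3 with a difference of -0.17 (adjusted p = 0.00100) in the nup60 deletion, -0.092 (adjusted p = 0.0307) in the ada2 deletion and -0.36 (adjusted p = 1.02e-06) in the labelled double deletion. Its ada2 call was lost without any ada2 array or wild type array 2 (differences -0.10 to -0.073, adjusted p 0.0604 to 0.109). POM34, a partner of Pom152, had values of 11.72, 11.67 and 11.73 (nup60 deletion), 11.62, 11.63 and 11.62 (ada2 deletion), 11.65, 11.63 and 11.48 (labelled double deletion) and 11.47, 11.67 and 11.66 (wild type). Wild type array 1 and labelled double deletion array 3 lay lowest and the nup60 deletion arrays highest, and no comparison called it.

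**Figure D2:**
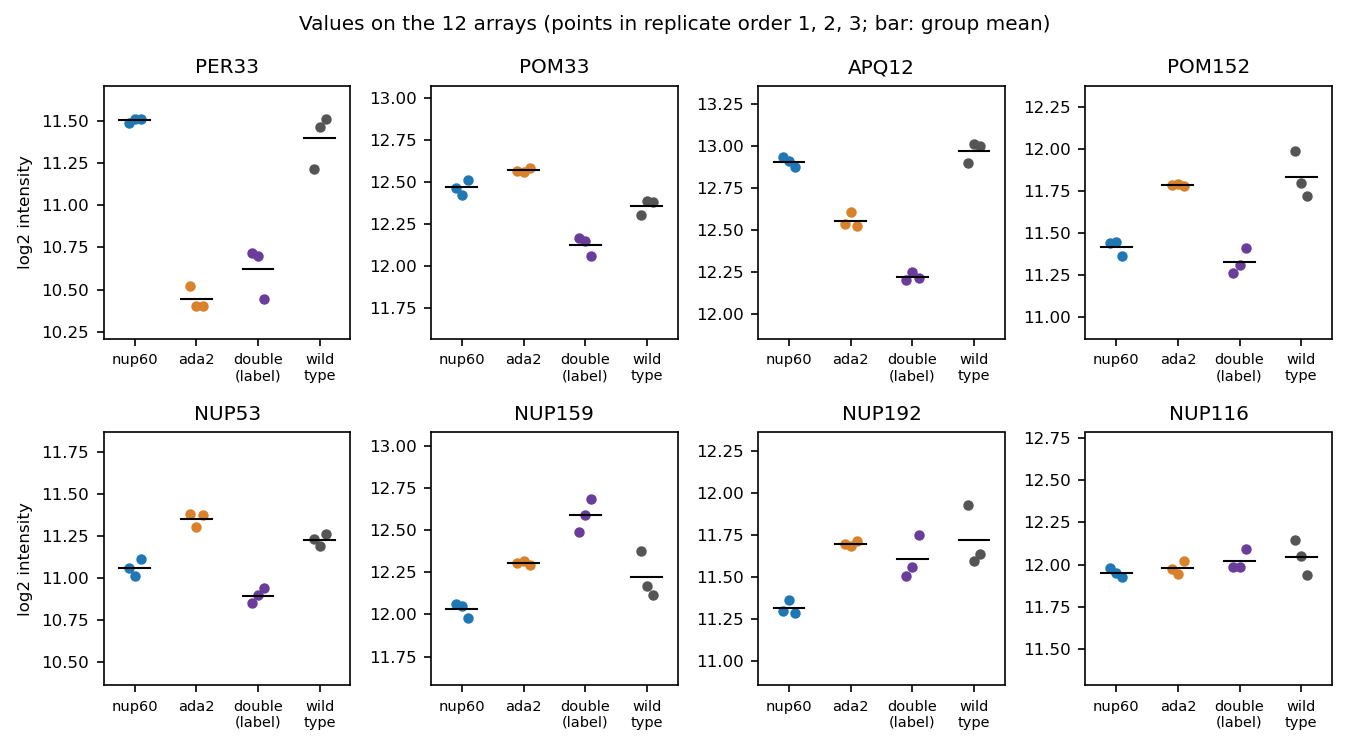
Log2 intensity on each of the 12 arrays for PER33, POM33, APQ12, POM152, NUP53, NUP159, NUP192 and NUP116, with a bar at each group mean and every panel spanning the same range. PER33 is low in the ada2 and labelled double deletions, POM33 is low only in the labelled double deletion, and each deletion group of NUP116 overlaps wild type.

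Among the 3 genes of pore assembly at the membrane, none was called in nup60 deletion cells, APQ12 was lower in ada2 deletion cells, and all 3 were called on the labelled double deletion arrays. Over all genes 51.3%, 45.7% and 73.2% were called in these comparisons with wild type. Without wild type array 1 and labelled double array 3, APQ12 and BRL1 also passed as lower in the nup60 deletion (-0.10 and -0.16), and BRL1 in the ada2 deletion (-0.23). APQ12, a small membrane protein linked to pore assembly and to the lipids of the envelope, had values of 12.93, 12.91 and 12.87 in nup60 deletion cells, 12.54, 12.61 and 12.52 in ada2 deletion cells, 12.20, 12.25 and 12.21 on the arrays labelled as the double deletion, and 12.90, 13.01 and 13.002 in wild type. The labelled double deletion arrays lay lowest, the ada2 arrays next, and the nup60 and wild type arrays overlapped above both. It was lower than wild type with a difference of -0.41 ± 0.040 (SE, adjusted p = 1.43e-05) in the ada2 deletion and -0.75 ± 0.040 (SE, adjusted p = 2.73e-08) in the labelled double deletion, a 1.68-fold change, and lower in the labelled double deletion than in the nup60 deletion at -0.68 (adjusted p = 1.89e-07) and than in the ada2 deletion at -0.33 (adjusted p = 2.45e-05). BRR6 and BRL1 encode related membrane proteins that act together, and on the labelled double deletion arrays they moved in opposite directions. With all arrays neither was called in a single deletion. BRR6 had values of 10.96, 10.99 and 10.93 (nup60 deletion), 11.10, 11.02 and 10.99 (ada2 deletion), 11.30, 11.17 and 11.30 (labelled double deletion) and 10.94, 10.90 and 11.001 (wild type), with the labelled double deletion arrays above all others. BRL1 had values of 10.11, 10.01 and 10.09 (nup60 deletion), 9.95, 10.05 and 9.97 (ada2 deletion), 9.76, 9.72 and 9.44 (labelled double deletion) and 10.03, 10.25 and 10.20 (wild type), with the labelled double deletion arrays below all others. On these arrays BRR6 was higher than wild type by 0.31 ± 0.046 (SE, adjusted p = 0.000102), than the nup60 deletion by 0.30 (adjusted p = 0.000230) and than the ada2 deletion by 0.22 (adjusted p = 0.00142). BRL1 was lower than wild type with a difference of -0.52 ± 0.084 (SE, adjusted p = 0.000180), than the nup60 deletion at -0.43 (adjusted p = 0.00104) and than the ada2 deletion at -0.35 (adjusted p = 0.00303). All these pairwise calls of APQ12, BRR6 and BRL1 held under every alternative tried.

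The labelled double deletion was set against each single deletion to ask what changes when the second deletion is added, with the limit that its strain differs in mating type and URA3. Against the nup60 deletion, 10 members were lower and 7 higher, where 30.6% of all genes were lower and 33.1% higher, and the member median was -0.024 against 0.019 for all genes. PER33, APQ12, BRL1, SEH1, POM33 and GLE1 had the largest lower values, and NUP159, NSP1, DYN2, BRR6, NUP192, NUP84 and NUP188 were the higher ones. Without wild type array 1 and labelled double deletion array 3, the lower members became 16 and the higher ones 9, where 34.6% of all genes were lower and 38.7% higher. The call of NUP188, at 0.22 (adjusted p = 0.0282), was lost without any nup60 array or labelled double array 2 or 3 (differences 0.18 to 0.23, adjusted p 0.0546 to 0.0966). Against the ada2 deletion, 14 were lower and 3 higher, where 33.9% of all genes were lower and 35.2% higher, and the medians were -0.10 for members and 0.0037 for all genes. The 3 higher were NUP159, BRR6 and NUP59, and the largest lower values were those of POM152, NUP53 and POM33. Without the same 2 arrays 18 were lower and 4 higher, where 38.8% of all genes were lower and 40% higher, and PER33 joined the higher ones at 0.27 (adjusted p = 0.000166). The 5 pairwise comparisons share arrays, so their values are not independent of each other.

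The design also allows the labelled double deletion to be set against the sum of the 2 single differences (the interaction, on the log2 scale). It was below that sum in 4 members and above it in 4, where 18.5% of all genes were below and 20.6% above, and the member median was 0.070 against 0.021 for all genes. POM33 lay farthest below with a difference of -0.55 ± 0.057 (SE, adjusted p = 4.66e-05), followed by NUP53 at -0.29 ± 0.057 (SE, adjusted p = 0.00280), APQ12 at -0.27 (adjusted p = 0.00397) and DBP5 at -0.15 (adjusted p = 0.0227). NUP159 lay farthest above, by 0.47 ± 0.10 (SE, adjusted p = 0.00335), followed by NUP188 at 0.34 (adjusted p = 0.0324), BRR6 at 0.21 (adjusted p = 0.0296) and NUP49 at 0.15 (adjusted p = 0.0203). Without wild type array 1 and labelled double deletion array 3, the same 8 genes passed and 7 more joined them, for 8 below and 7 above, where 1231 and 1403 of the 5449 genes were below and above. POM33 was then -0.49 ± 0.043 (adjusted p = 2.87e-05), NUP159 0.34 ± 0.055 (adjusted p = 0.000966) and NUP188 0.20 ± 0.070 (adjusted p = 0.0399), and PER33, at 0.072 with all arrays (adjusted p = 0.656), was 0.25 ± 0.056 (adjusted p = 0.00517). With every array centred on its gene median, 7 members were below and 2 above, and over all genes 1226 were below and 912 above, against 1010 and 1124 with the values as deposited. The number above became 7 without wild type array 2 (20.2% of all genes). It became 2 without any 1 nup60 array (15.5% to 17%) or labelled double array 3 (19.5%). NUP188 lost its call without any nup60 array, ada2 array 1 or labelled double array 2 or 3 (differences 0.30 to 0.35, adjusted p 0.0577 to 0.0781), BRR6 without nup60 array 1 or 3, ada2 array 2 or 3, labelled double array 1 or 3 or wild type array 3 (differences 0.18 to 0.21, adjusted p 0.0562 to 0.0733), and DBP5 without nup60 array 2 or 3 or ada2 array 2 (differences -0.15 to -0.13, adjusted p 0.0519 to 0.0592). NUP49 lost it without nup60 array 2 (difference 0.14, adjusted p = 0.0534). POM33, NUP159, NUP53 and APQ12 kept theirs under every alternative tried.

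**Figure D3:**
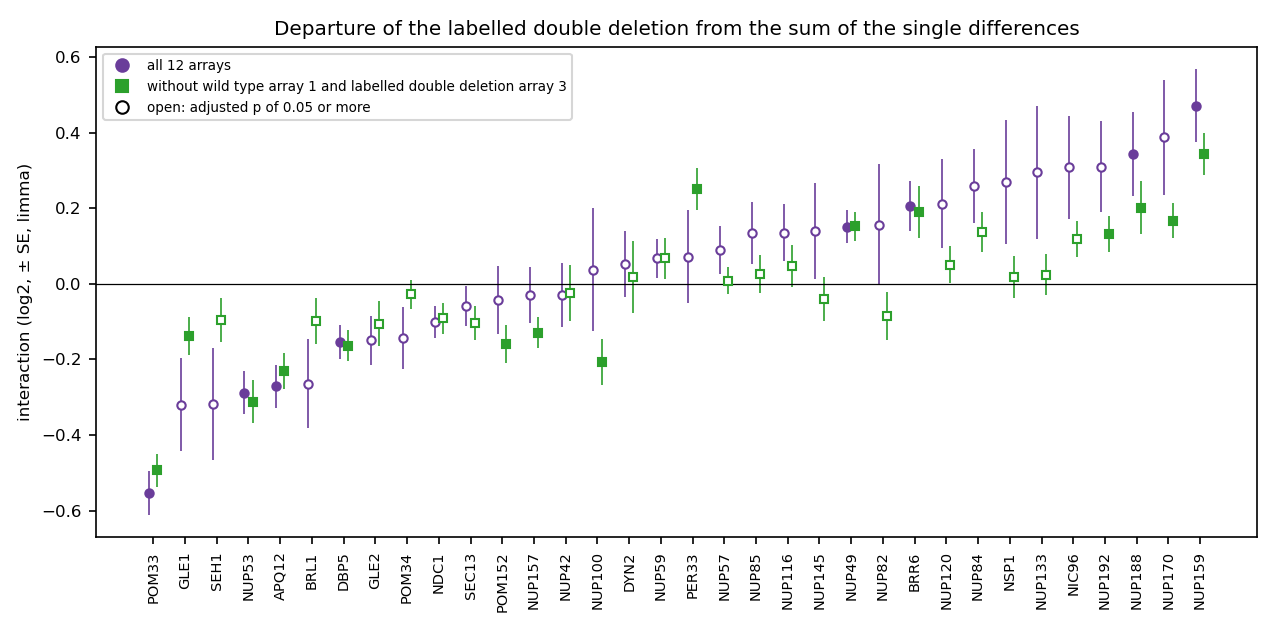
Departure of the labelled double deletion from the sum of the 2 single differences (log2, ± SE, limma) for the 34 genes, with all 12 arrays and without wild type array 1 and labelled double deletion array 3. Filled points passed an adjusted p of 0.05, and POM33 (-0.55) and NUP159 (0.47) stand at the ends.

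Gene length ran with the nup60 differences and with the offsets of some arrays from their groups. Scaffold genes are long, and 25 of the 34 members exceed the median gene length of 1236 bp, with a range of 417 bp (APQ12) to 5052 bp (NUP192). In the nup60 deletion 13 of the 16 members of at least 2000 bp were lower, against 4 of the 18 shorter ones, and their median differences were -0.30 and -0.040. Over all genes, 40.2% of the 1228 long ones were lower, with a median of -0.16, and 22.2% of the 4221 shorter ones, with a median of 0.010. The class of 2000 bp was chosen after these values were seen. Wild type array 1 minus the mean of the other 2 wild type arrays had a median of 0.32 in the long members and -0.010 in the shorter ones. Labelled double deletion array 3 minus the mean of the other 2 of its group had a median of 0.16 in the long members and -0.032 in the shorter ones. Across the 34 members the offset of wild type array 1 had a correlation of 0.72 with log2 gene length, and that of labelled double deletion array 3 one of 0.57. Across all genes these correlations were 0.33 and 0.31, and all points of one correlation come from the same arrays. Array 3 of the ada2 deletion had correlations of 0.48 and 0.32 with log2 length over members and over all genes. The other arrays of wild type and of the labelled double deletion had correlations below 0. With wild type array 1 and labelled double deletion array 3 left out, 13 of the 16 long members were again lower in the nup60 deletion, with a median of -0.20, where 42.4% of the long genes were lower with a median of -0.078. With the trend of each array against gene length subtracted, 15 of the 34 members were lower and 2 higher in the nup60 deletion, where 26% of all genes were lower and 29.5% higher, and the difference of NUP159 was 0.021 in place of -0.19. The nup60 calls of NDC1, NUP157 and NUP188 also ended in that setting, which was chosen after the data were seen.

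**Figure D4:**
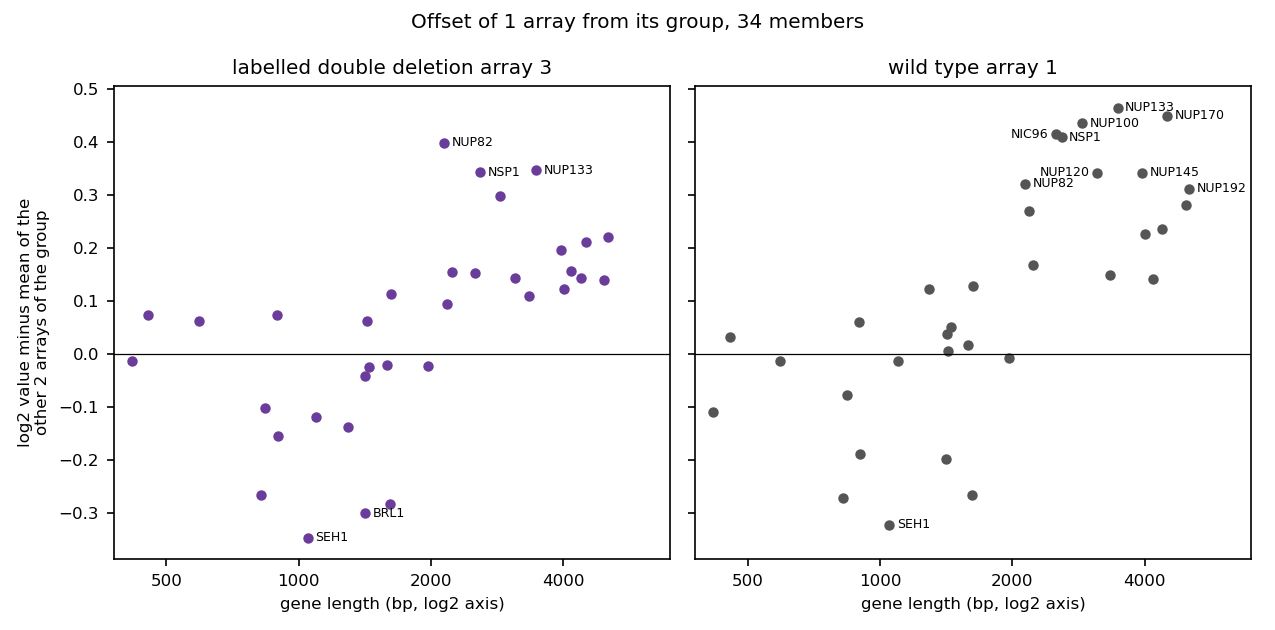
Log2 value of labelled double deletion array 3 (left) and wild type array 1 (right) minus the mean of the other 2 arrays of its group, against gene length in bp on a log2 axis, for the 34 genes. Members over 2000 bp lie above 0 on both arrays, and SEH1 lies lowest on both.

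Other genes of nuclear transport were measured on the same arrays. Their counts stand against the shares of all genes given above, which were 26.2% lower and 25.1% higher in the nup60 deletion, 23% and 22.7% in the ada2 deletion, and 37.1% and 36.1% in the labelled double deletion. All 5 nuclear basket genes were lower in the nup60 deletion and in the labelled double deletion, with the deleted NUP60 among them, and 1, NUP60, was lower in the ada2 deletion (difference -0.30). MLP1 and MLP2, the long filaments of the basket, were lower with a difference of -0.39 and -0.31 in the nup60 deletion and at -0.62 and -0.45 in the labelled double deletion. Of 15 karyopherins, the receptors that carry cargo through the channel, 11 were lower in the nup60 deletion, 4 in the ada2 deletion and 8 in the labelled double deletion, and none was higher. KAP95, the importin beta that Nup116 binds, differed by -0.41, -0.62 and -1.03 in those 3, and LOS1, the exporter of transfer RNA, by -0.45, -0.38 and -0.81. PDR6, an importin, was lower with a difference of -0.73 and -0.65 in the nup60 and labelled double deletions. The Ran cycle had 2 of 9 genes lower and 1 higher in the nup60 deletion, 1 and 2 in the ada2 deletion, and 4 and 1 in the labelled double deletion. GSP2, the second Ran gene of yeast, was higher in all 3, by 1.43, 0.57 and 1.999.

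Factors that load messenger RNA for export had 3 of 16 lower and 2 higher in the nup60 deletion, 6 and 1 in the ada2 deletion, and 7 and 3 in the labelled double deletion. Both nup60 counts are smaller shares of the list than of all genes. NAB2, a poly(A)-binding protein, was higher by 0.59 in the nup60 deletion, lower with a difference of -0.27 in the ada2 deletion and higher by 0.34 in the labelled double deletion. YRA1, an export adaptor, was higher by 0.51 in the nup60 deletion and 0.51 in the labelled double deletion. Of 7 genes of the inner nuclear membrane and of pore quality control, 1 was lower and 1 higher in the nup60 deletion, 1 was lower in the ada2 deletion, and 1 was lower and 3 higher in the labelled double deletion. HEH2, which binds the pore at the inner membrane, differed by -0.22, -0.37 and -0.50, and its relative SRC1 was higher by 0.50 in the labelled double deletion. Growth and stress transcripts moved in the same comparisons. Of 31 ribosome biogenesis genes, 29 were lower in the nup60 deletion, 13 in the ada2 deletion and 31 in the labelled double deletion, with medians of -0.35, -0.16 and -0.62. Of 23 general stress genes, 23, 15 and 22 were higher in those 3 and 3 were lower in the ada2 deletion, with medians of 1.72, 0.30 and 1.74. The log2 of the summed intensity of the 31 ribosome biogenesis genes was 17.89 to 17.92 in the nup60 deletion, 18.02 to 18.03 in the ada2 deletion, 17.56 to 17.59 in the labelled double deletion and 18.17 to 18.25 in wild type. For the 23 stress genes it was 17.68 to 17.78, 16.47 to 16.53, 17.83 to 17.86 and 15.998 to 16.05 in the same groups. The part of either in the values of the pore genes was not tested.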

How the data were processed

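RNA of 12 cultures was hybridised to Affymetrix yeast arrays. The authors deposited linear intensity values for 10928 probe sets, made with RMA in Affymetrix Expression Console 1.1, per the submitters' processing notes, so they were already background-corrected and normalized between arrays. Here log2 was taken. The 1746 Schizosaccharomyces pombe probe sets set the background. The 5498 probe sets with 1 Saccharomyces cerevisiae gene gave 5449 genes, with the highest-mean probe set for the 47 genes that had several. limma 3.58.1 in R 4.3.3 fitted the means of the 4 groups, with moderated variances (8 residual and 2.58 prior degrees of freedom). Benjamini-Hochberg adjustment ran over all genes within each of 6 comparisons. The fit was also run on simulated data with independent noise, equal in every group. Those data have neither the unequal group spreads nor the array offsets seen here, so they cannot vouch for the calls. Arrays give no read depth, and 3 arrays a group limit the precision. Per-array values are given for the largest changes per comparison, the largest interactions, members never called, the brightest and dimmest members, and paralog pairs. Of other lists, up to 3 genes with the largest change are named. The members and lists were chosen with earlier results of these data known. Nothing in the labels beyond the word biological says how replicate cultures were started, so p-values measure the spread between these arrays. Alternatives covered centring, quantile normalization, an intensity trend, dim genes, probe set means, the groups compared, the replicate number, leaving out arrays and gene length.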

Additional observations from a re-analysis of the deposited data

Results flagged for a closer look

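In 8 members the effect of one deletion differed with the other, by limma's test of the interaction adjusted over all 5449 genes, with the limit that the strain labelled as the double deletion also differs in mating type and URA3. These are 23.5% of the members, where 39.2% of all genes passed, a smaller share of the members than of the genome. The labelled double deletion lay below the sum of the single differences for POM33 (-0.5532, adjusted p = 4.66e-05), NUP53 (-0.2881, adjusted p = 0.00280), APQ12 (-0.2708, adjusted p = 0.00397) and DBP5 (-0.154, adjusted p = 0.0227). It lay above that sum for NUP49 (0.1508, adjusted p = 0.0203), BRR6 (0.2064, adjusted p = 0.0296), NUP188 (0.3426, adjusted p = 0.0324) and NUP159 (0.4716, adjusted p = 0.00335). All 3 labelled double deletion arrays lay below the other 9 arrays for POM33, NUP53, APQ12 and DBP5 and above them for NUP159 and BRR6. The labelled double deletion arrays of NUP188 and NUP49 overlapped those of at least 1 other group. These 8 genes were picked on the same values, and the share of all genes separated in this way is not given here. The separation therefore adds no support. Over all genes the labelled double deletion had the lowest mean in 35.0% and the highest in 36.6%.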

How the results depend on the processing

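Of 95 called member comparisons, 62 kept their call under every alternative tried, 33 lost it or turned under at least 1, and 29 lost it when at least 1 array was left out. Both that turned did so with the gene length trend removed, which was chosen after the data were seen: NUP159 in the nup60 deletion against wild type (0.0211) and NUP188 in the labelled double deletion against the nup60 deletion (-0.0048). Leaving out dim genes or averaging probe sets ended no call. Shares of all genes in the same setting follow in brackets. With arrays centred, 0 members were higher in the nup60 deletion (25%) and 3 in the labelled double deletion (34.4%), both against wild type. The interaction then had 7 lower (22.5%) and 2 higher (16.7%). Quantile normalization gave 2 and 3 higher (22.3% and 32.2%), and 7 lower in the interaction (22.9%). An intensity trend gave 3 higher in the labelled double deletion (36.1%). Fitting only the groups compared gave 0 higher in the nup60 deletion (23.6%) and 5 lower in the ada2 deletion (18.6%). It gave 3 higher in the labelled double deletion (32.1%). The replicate block gave 0, 4 and 3 in the same order (23.3%, 20.1% and 34.7%). The labels do not say what the replicate numbers mark. Correlations between the deviations of same-numbered arrays from their group means ranged from -0.73 to 0.37 and exceeded 0.1 in 4 of 18 pairs. These deviations include the offsets of wild type array 1 and labelled double deletion array 3, so they cannot decide whether same-numbered arrays shared a batch. Without wild type array 1 and labelled double deletion array 3, 8 members were higher in the ada2 deletion (31% of all genes). In that setting 16 were lower in the labelled double deletion against the nup60 deletion (34.6%). The interaction then had 8 lower (22.6%) and 7 higher (25.7%). With the gene length trend removed, 2 were higher in the nup60 deletion (29.5%) and 5 in the ada2 deletion (27%). The labelled double deletion against the nup60 deletion then had 18 lower (34.4%) and 4 higher (32.2%), and the interaction 8 lower (24%). Why these counts moved was not tested.

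Leaving out 1 array at a time, the nup60 deletion had 13 to 18 lower and 0 to 1 higher members against wild type. The ada2 deletion had 4 to 9 and 2 to 4, and the labelled double deletion 18 to 19 and 2 to 7. Over all genes 21.1% to 29.8% were lower and 20.8% to 27.2% higher in the nup60 deletion. In the ada2 deletion these shares were 17.4% to 25.7% and 18.8% to 25.1%. In the labelled double deletion they were 35.2% to 37.1% and 33.8% to 38.5%. The labelled double deletion had 8 to 13 lower and 5 to 9 higher against the nup60 deletion. Against the ada2 deletion it had 10 to 16 and 3 to 4, and the interaction had 3 to 5 and 2 to 7. Over all genes these shares were 27.3% to 32.6% and 28.7% to 36.7% against the nup60 deletion. They were 30.5% to 36.4% and 32% to 37.9% against the ada2 deletion, and 14.6% to 19.3% and 15.5% to 21.7% in the interaction. The member medians ranged from -0.1529 to -0.1111, -0.0842 to -0.0111 (without wild type array 1) and -0.2091 to -0.14 against wild type, from -0.051 to -0.0046 and -0.1359 to -0.0767 against the single deletions, and from 0.0395 to 0.0976 in the interaction. With 3 arrays a group and SDs that differ between groups, small changes are the least certain.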
